A study of Bos taurus with 8 samples.

Results

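The genes described here are those of xenobiotic metabolism and of the aryl hydrocarbon receptor (AHR), the ligand-activated transcription factor that turns on many of them. They were taken by name, not by measured values: 34 names all had a probe on the array, with 36 probes in all, and they stand for 33 distinct genes, because CYP2C18 and CYP2C90 are names of 1 probe. Of these 33 genes, 24 had a tested probe, out of 10207 genes tested and 14960 genes with a probe.

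The tissue was rumen epithelium of Holstein bulls with a rumen fistula, aged 7.4 ± 0.3 months and weighing 215.2 ± 20.4 kg. On the WP diet, wood kraft pulp, a fibre rich in cellulose, replaced 50% of the corn flakes. The control diet was the same high-grain ration with all of its corn flakes, so animals of both groups were on grain-rich feed. Each diet was fed for 14 days in a cross-over of 5 bulls with no wash-out between diets; arrays of 4 of them, calves 21, 23, 24 and 25, were analysed here, 1 per calf and diet (n = 4 each), and the sources used here do not state which diet a calf received first.

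Foreign compounds are handled in steps. Phase I enzymes such as cytochromes P450 oxidise a compound, phase II enzymes couple it to glucuronic acid, sulfate or glutathione, and export pumps carry the product out of the cell. AHR binds plant compounds, microbial indoles and aromatic pollutants, pairs with ARNT in the nucleus and raises transcription of the CYP1 enzymes. It also raises AHRR and TIPARP, which limit its own activity. Rumen epithelium is a keratinised layer that meets plant compounds and fermentation products directly. Roles given below are those known for the human or rodent genes.

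All 8 arrays lay on 1 slide and no spot was saturated. A level is log2 of the processed signal minus the array's own 75th percentile, so 0 stands for a signal of 199 to 322 and a difference of 1 is a 2-fold change. Levels of different probes are not comparable. The number of probes that passed the scanner's background test ran from 9314 to 11917 per array. The WP array of calf 24 stood apart: its negative control spots had a median signal of 4.06, against 1.20 to 1.90 on the other 7 arrays, and its E1A control probes read 40.7, against 1.36 to 1.97. The slide had 2 rows, and the rows cross the diets: row 1 held WP of calves 21 and 23 and control of calves 24 and 25, and row 2 held WP of calves 24 and 25 and control of calves 21 and 23.

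Rumen epithelium expressed most of these genes. The spot was flagged as well above background on a minimum of 4 of 8 arrays for 24 of 33 genes (72.7%), against 68.2% of all probes. Every tested gene was above background on 8 arrays except EPHX1 and ABCC3, which were so on 7, because their spot on the WP array of calf 24 carried an outlier flag; their fits rest on 3 calf pairs. All 5 glutathione transferases (GSTA1, GSTM1, GSTM3, GSTP1, GSTO1) and all 4 conjugating enzymes of glucuronidation and sulfation (UGT1A1, UGT1A6, SULT1A1, SULT1B1) were tested, as were 3 of 4 AHR pathway genes, 2 of 3 CYP1 genes, 5 of 8 other cytochromes P450, 2 of 3 aldehyde dehydrogenases, 2 of 3 export pumps and 1 of 3 genes of the epoxide hydrolase and flavin monooxygenase group.

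The other 9 genes were not well above background on enough arrays to be tested. CYP2C19, whose probe RefSeq lists as CYP2C89, and FMO2 were below that limit on all 8 arrays. AHRR, the AHR repressor, and the fatty acid hydroxylase CYP4B1 passed it on the WP array of calf 21 alone. ALDH3A1, CYP1A2, CYP2S1 and FMO1 passed it on the WP array of calf 24 alone, and ABCG2, an export pump of the apical membrane, on both of these WP arrays. None of the 9 passed on a control array, where their highest signal was 7.25. The share of all untested probes that passed on WP arrays alone was not determined. AHRR passed at a signal of 8.45, against 3.51 to 7.95 on the other 7 arrays. The WP array of calf 21, where it passed, had the lowest negative control signal, 1.20. Signals of the 9 probes were 4.06 to 73.1 on the WP array of calf 24, against 1.27 to 10.04 on the other 7 arrays. The raised control spots of that array move with these signals; their part in the 5 detections there was not tested.

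**Figure D1:**
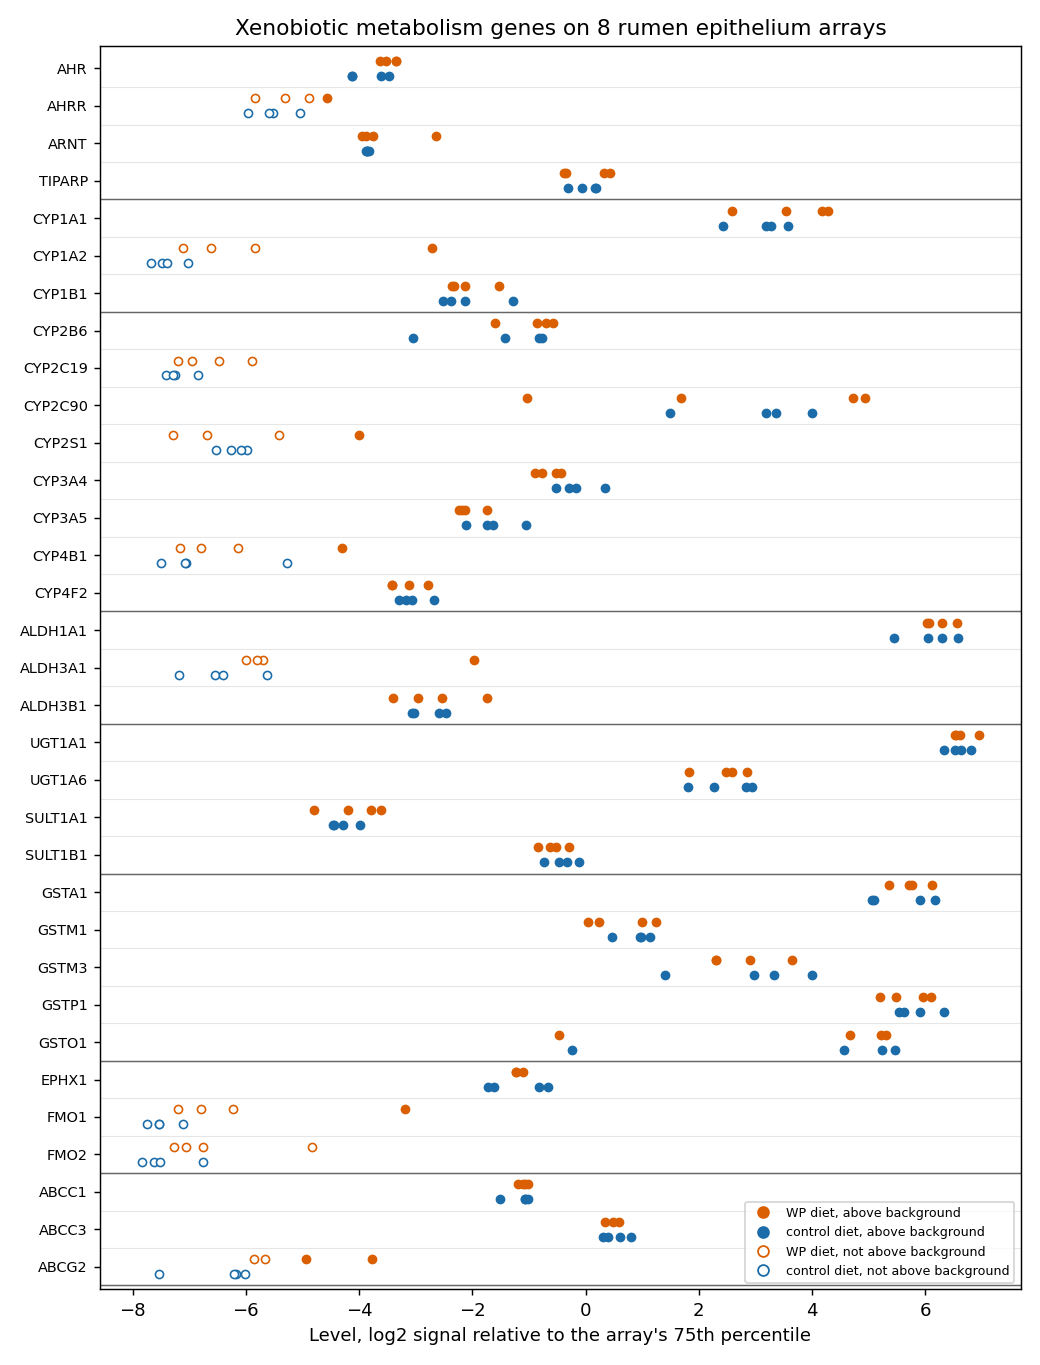
Levels of the 33 genes on each array (x axis, log2 signal relative to the array's 75th percentile), grouped by role, with WP arrays above control arrays in each row and open circles for spots not well above background. The 9 genes with open circles on most arrays sit at the left, and for ALDH3A1, CYP1A2, CYP2S1 and FMO1 the lone filled circle is the WP array of calf 24.

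No gene of the group passed the test for the diet. With calf as a block and limma's p adjusted over all 10236 probes, 0 of 24 genes and 0 of all probes (0%) were under 0.05, and the smallest adjusted p was 0.658 in both. At an unadjusted limma p under 0.05 there were 3 of 24 genes (12.5%), against 6.99% of all probes, which is 715: CYP3A5 and CYP3A4 on the lower side (1.75% of all probes) and AHR on the higher side (5.24%). Differences were positive for 12 genes and negative for 12, while 64.4% of all probes were positive. The median difference was 0.0027 log2 over the 24 genes and 0.087 over all genes. By calf, the medians of the 24 genes were 0.085, 0.051, 0.17 and -0.071 for calves 21, 23, 24 and 25, and those of all genes 0.12, 0.028, 0.14 and 0.00052. AHR alone was higher on WP in 4 of 4 calves (11.9% of all probes were), and CYP3A5 alone was lower in 4 of 4 (5.39%). No gene's diets were without overlap, which held for 3.65% of probes with WP higher and 1.19% with WP lower.

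**Figure D2:**
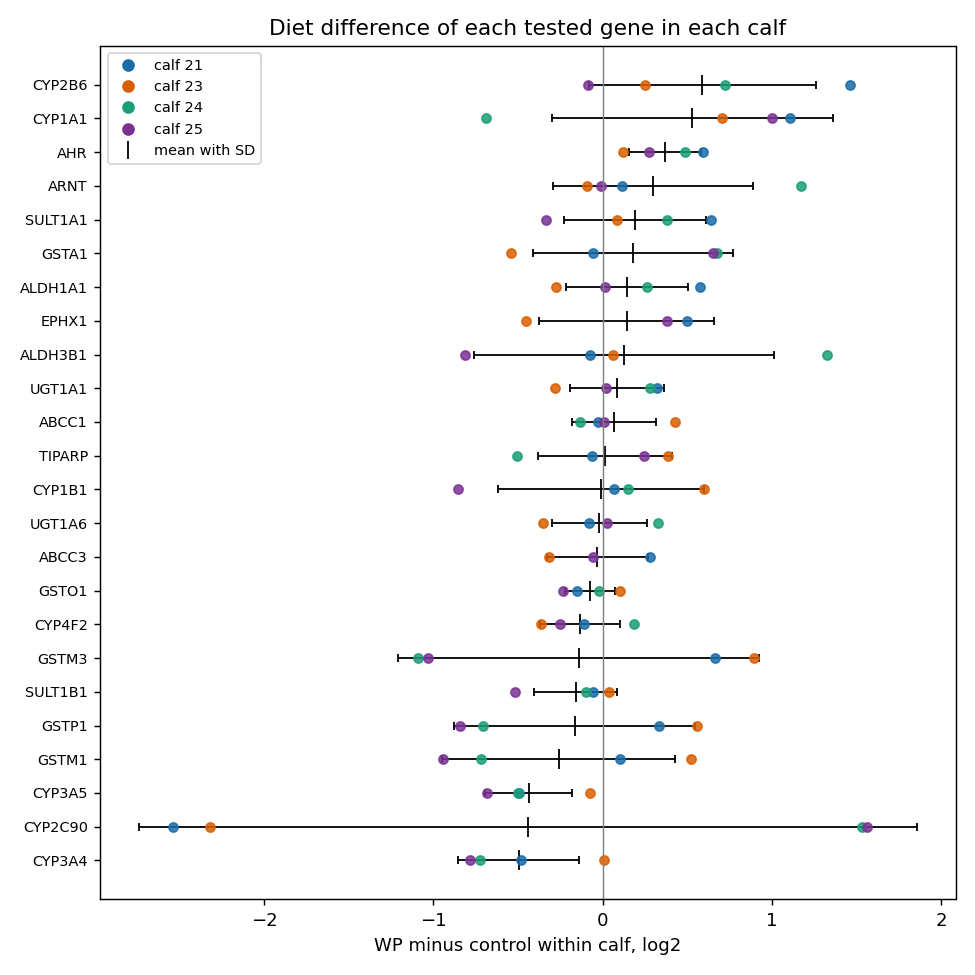
WP minus control within each calf (x axis, log2; coloured points) for the 24 tested genes, with the mean as a vertical tick and the SD over calves as a bar. AHR has all 4 points right of 0 and CYP3A5 all 4 left of 0, and CYP2C90 has calves 21 and 23 at -2.54 and -2.32 and calves 24 and 25 at 1.53 and 1.56.

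Probes of 6 genes on which the results below turn are printed here as read by the array, 60 bases each, 5′ to 3′, with no part marked. Their positions on UMD 3.1 are those of the array design, and the exon or other feature at each was not analysed here. The AHR probe lies at chr4:25834911-25834970 (plus strand), the CYP1A1 probe at chr21:34346255-34346314 (plus), the CYP3A4 probe at chr25:37125929-37125988 (minus), the CYP3A5 probe at chr25:37189888-37189947 (minus), the CYP2C90 probe at chr26:15973233-15973292 (plus) and the GSTO1 probe at chr26:25097625-25097684 (plus).
AHR: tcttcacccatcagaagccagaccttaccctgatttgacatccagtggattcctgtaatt
CYP1A1: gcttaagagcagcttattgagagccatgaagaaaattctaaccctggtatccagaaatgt
CYP3A4: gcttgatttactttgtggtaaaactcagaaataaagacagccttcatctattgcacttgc
CYP3A5: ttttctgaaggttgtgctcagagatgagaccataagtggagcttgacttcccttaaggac
CYP2C90: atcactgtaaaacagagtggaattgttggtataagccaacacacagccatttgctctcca
GSTO1: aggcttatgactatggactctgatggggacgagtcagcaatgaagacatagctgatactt
None of the 36 probes of the group shares a run of 20 bases with another probe on the array, and the longest run shared by the CYP3A4 and CYP3A5 probes is 6 bases. Probes were compared with probes only. Whether a probe also reads the transcript of a related gene was not examined. RefSeq names the gene under the CYP3A4 probe CYP3A74 and that under the CYP3A5 probe CYP3A76; both are cattle members of the CYP3A subfamily. A second probe carrying the CYP3A5 name, RefSeq CYP3A28, was not above background on any array.

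In the AHR pathway, AHR itself had slightly higher levels on WP in every calf. Its levels were -3.52, -3.34, -3.63 and -3.34 on WP in calves 21, 23, 24 and 25, against -4.12, -3.47, -4.12 and -3.61 on the control diet. The WP values span a narrow range, within which the control values of calves 23 and 25 also lie. The difference was 0.37 ± 0.21 (SD, n = 4 calves), 1.29-fold, with an unadjusted limma p of 0.038 and an adjusted p of 0.658. Before scaling, the AHR signal was dim: 17.3, 19.8, 23.0 and 23.1 on WP, against 18.6, 26.0, 16.2 and 17.3 on control. That signal was lower on WP in calves 21 and 23. Under quantile scaling of the arrays the AHR difference was -0.31, of the opposite sign. With normexp background correction it was 0.21, with an unadjusted limma p of 0.117. With a trended and robust prior the unadjusted limma p was 0.177.

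ARNT, the partner that AHR needs to bind DNA, had levels of -3.75, -3.95, -2.65 and -3.88 on WP, against -3.87, -3.85, -3.82 and -3.87 on control. The WP array of calf 24, the one with raised control spots, lies above the other 7, which are close together. The difference was 0.30 ± 0.59 (limma adjusted p = 0.708), and 0.0039 without calf 24. TIPARP, an ADP-ribosyltransferase that AHR turns on and that in turn restrains AHR, had -0.38, 0.33, -0.34 and 0.43 on WP, against -0.32, -0.05, 0.17 and 0.18 on control. Its difference, 0.015 ± 0.39, changed sign from calf to calf (limma adjusted p = 0.983).

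CYP1A1, the enzyme most strongly under AHR control in other species, gave levels of 3.54, 4.28, 2.59 and 4.18 on WP, against 2.43, 3.58, 3.28 and 3.18 on the control diet. WP was higher in calves 21, 23 and 25, by 1.1, 0.71 and 1.0, and lower by 0.69 in calf 24. The mean difference of 0.53 ± 0.83 (1.44-fold) was smaller than its spread between calves (unadjusted limma p of 0.170 and adjusted p of 0.667). Without calf 24, the 1 calf of opposite sign, the difference was 0.94 (unadjusted limma p of 0.0027 and adjusted p of 0.814); without calves 21, 23 and 25 in turn it was 0.34, 0.47 and 0.37 (unadjusted limma p of 0.432, 0.326 and 0.405). CYP1B1, another AHR-controlled oxidase, had -2.31, -1.53, -2.36 and -2.13 on WP, against -2.38, -2.12, -2.51 and -1.28 on control. The calves went both ways, with a mean of -0.010 ± 0.61 (limma adjusted p = 0.993).

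The 2 CYP3A genes, oxidases of steroids and many drugs, averaged lower on WP without passing the test, and the diets overlapped for both. CYP3A4 gave -0.77, -0.52, -0.90 and -0.43 on WP, against -0.29, -0.53, -0.17 and 0.35 on control. It was lower in 3 calves and level in calf 23, where the difference was 0.006. The mean was -0.50 ± 0.36, 1.41 times as high on control, with an unadjusted limma p of 0.034 (adjusted 0.658). CYP3A5 gave -2.24, -2.19, -2.13 and -1.75 on WP, against -1.75, -2.11, -1.63 and -1.06 on control. The difference was -0.44 ± 0.26, 1.35 times as high on control, with an unadjusted limma p of 0.028 (adjusted 0.658). With normexp background correction it was -0.19, with an unadjusted limma p of 0.163 and an adjusted p of 0.414. Within slide row 1 the CYP3A5 difference was -0.87, and within row 2 it was -0.0084; for CYP3A4 these were -0.74 and -0.26.

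CYP2B6, an oxidase that is typically turned on by the receptor CAR, gave -1.59, -0.58, -0.69 and -0.85 on WP, against -3.05, -0.83, -1.42 and -0.76 on control. The lowest of the 8 values is the control array of calf 21. The difference was 0.59 ± 0.67 (1.5-fold), with an unadjusted limma p of 0.085 and an adjusted p of 0.658. It was 0.30 without calf 21, 0.0057 within slide row 1 and 1.17 within row 2. CYP4F2, a fatty acid hydroxylase, gave -2.79, -3.42, -3.12 and -3.42 on WP, against -2.68, -3.06, -3.30 and -3.17 on control, a difference of -0.13 ± 0.24 (limma adjusted p = 0.755). RefSeq lists the gene under this probe as LOC507016.

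Among conjugating and dehydrogenase genes, values overlapped throughout. SULT1B1, a sulfotransferase of phenols and thyroid hormone, gave -0.52, -0.29, -0.84 and -0.63 on WP, against -0.47, -0.33, -0.74 and -0.11 on control, a difference of -0.16 ± 0.25 (limma adjusted p = 0.726). SULT1A1, a phenol sulfotransferase, gave -3.79, -4.20, -3.60 and -4.80 on WP, against -4.43, -4.29, -3.98 and -4.46 on control, a difference of 0.19 ± 0.42 (limma adjusted p = 0.745); quantile scaling turned its sign, to -0.48. ALDH1A1, which makes retinoic acid from retinal, gave 6.03, 6.30, 6.56 and 6.06 on WP, against 5.46, 6.57, 6.30 and 6.05 on control, a difference of 0.15 ± 0.36 (limma adjusted p = 0.786). GSTM1, a mu-class glutathione transferase whose probe RefSeq lists as LOC783879, gave 1.24, 1.0, 0.24 and 0.04 on WP, against 1.13, 0.47, 0.96 and 0.98 on control, a difference of -0.26 ± 0.69 (limma adjusted p = 0.765).

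The other 9 tested genes, leaving GSTO1 and CYP2C90 to the next paragraphs, were ALDH3B1, UGT1A1, UGT1A6, GSTA1, GSTM3, GSTP1, EPHX1, ABCC1 and ABCC3. Their diet differences lay between -0.17 and 0.18 with unadjusted limma p of 0.498 or more. In the authors' value table, which keeps the spot that was left out here, EPHX1 differed by 0.46 and ABCC3 by 0.20, against 0.14 and -0.031 here. UGT1A1 and UGT1A6 add glucuronic acid to bilirubin and to phenols. The UGT1A6 probe lists transcripts of both genes, which cannot be told apart on it. The UGT1A1 probe lies downstream of it on the same strand, at chr3:114031263-114031322 against 114028224-114030456. Whether the UGT1A1 probe reads 1 of these genes alone was not examined. ABCC1 and ABCC3, pumps for conjugates, had ranges of 0.50 over 8 arrays and 0.49 over the 7 with a value. GSTM3 had the widest range of the 9, 2.59.

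CYP2C90, a cytochrome P450 of the drug-metabolising CYP2C subfamily, was chosen for this paragraph after its values were seen. Its levels were -1.04, 1.68, 4.72 and 4.93 on WP in calves 21, 23, 24 and 25, against 1.5, 4.0, 3.19 and 3.37 on control. WP was lower by 2.54 and 2.32 in calves 21 and 23 and higher by 1.53 and 1.56 in calves 24 and 25, so the mean of -0.44 ± 2.30 hides 2 opposite pairs (limma adjusted p = 0.877). The slide rows split the calves in the same way: row 1 minus row 2 within calf was -2.54, -2.32, -1.53 and -1.56. With diet, calf and row in 1 fit, the row difference was -1.99 with an unadjusted limma p of 4.34e-05, the smallest of all 10236 probes, and an adjusted p of 0.231. The diet difference was -2.96 within row 1 and 2.08 within row 2. Each of these within-row values sets 2 calves on WP against 2 other calves on control. The order of the diets is not stated for each calf; had calves 21 and 23 one order and calves 24 and 25 the other, slide row and feeding period cannot be told apart, here and for the row differences that follow.

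Slide row was set against the other genes of the group because of this gene, after the data were seen. At an unadjusted limma p under 0.05, 5 of 24 genes (20.8%) differed between rows, against 12.9% of all probes (1320), and 0 of 24 and 0% of all probes did so after adjustment. CYP2C90, which prompted the contrast, is 1 of these 5 and raises their share. Besides CYP2C90 these were GSTM3 (0.92), GSTP1 (0.61), GSTM1 (0.57) and GSTA1 (-0.48), all glutathione transferases, which couple glutathione to reactive compounds. GSTO1, also a glutathione transferase, was not among them (0.053, limma adjusted p = 0.860). GSTM3, GSTP1 and GSTM1 were higher in row 1 in 4 of 4 calves, and GSTA1 lower in 4 of 4. UGT1A6, not a glutathione transferase, was also lower in 4 of 4, at -0.080, -0.35, -0.33 and -0.027. The share of all probes with 1 direction by row in 4 of 4 calves was not determined. The GSTP1 probe used is listed by RefSeq as LOC281806. The second GSTP1 probe, RefSeq's own GSTP1, had row differences of 0.19, 0.62, 0.81 and 1.45, positive in every calf as on the brighter probe. Limma adjusted p for the row was 0.255 for GSTM3, 0.285 for GSTP1, 0.308 for GSTM1 and 0.336 for GSTA1. Values of cell type markers also differed between the rows, and their part in these differences was not tested. Of 5 tested T and NK cell markers 4 were negative (row 1 lower), with CD3D at -2.61 and CD3G at -1.39, both lower in row 1 in 4 of 4 calves (limma adjusted p = 0.255 for both). CD3D levels ran from -6.85 to -1.92, so the size of its difference rests in part on dim spots. CD8A was the 1 positive marker, at 0.77 (limma adjusted p = 0.372). Macrophage and dendritic cell markers were negative in 6 of 6, with a median of -0.73 and AIF1 at -1.36, and fibroblast markers in 9 of 10, with a median of -0.37. Stratified epithelium markers were positive in 8 of 14 and negative in 6, with a median of 0.15, KRT5 at 0.58 and IVL at -0.75. Endothelium markers were positive in 5 of 7 (median 0.042) and smooth muscle markers in 3 of 6 (median -0.029). B and plasma cell markers were negative in 3 of 5 (median -0.077) and hepatocyte markers in 3 of 3 (median -0.57). The share of all probes that were negative for the row was not determined, so these sign counts have no background to be read against. None of the marker genes passed limma's adjusted threshold for the row. At an unadjusted limma p under 0.05 there were 3 higher and 1 lower of the epithelium list and 3 lower each of the macrophage and fibroblast lists. There were 1 higher and 2 lower of the T and NK cell list, 1 lower of the hepatocyte list and 0 of the other lists.

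**Figure D3:**
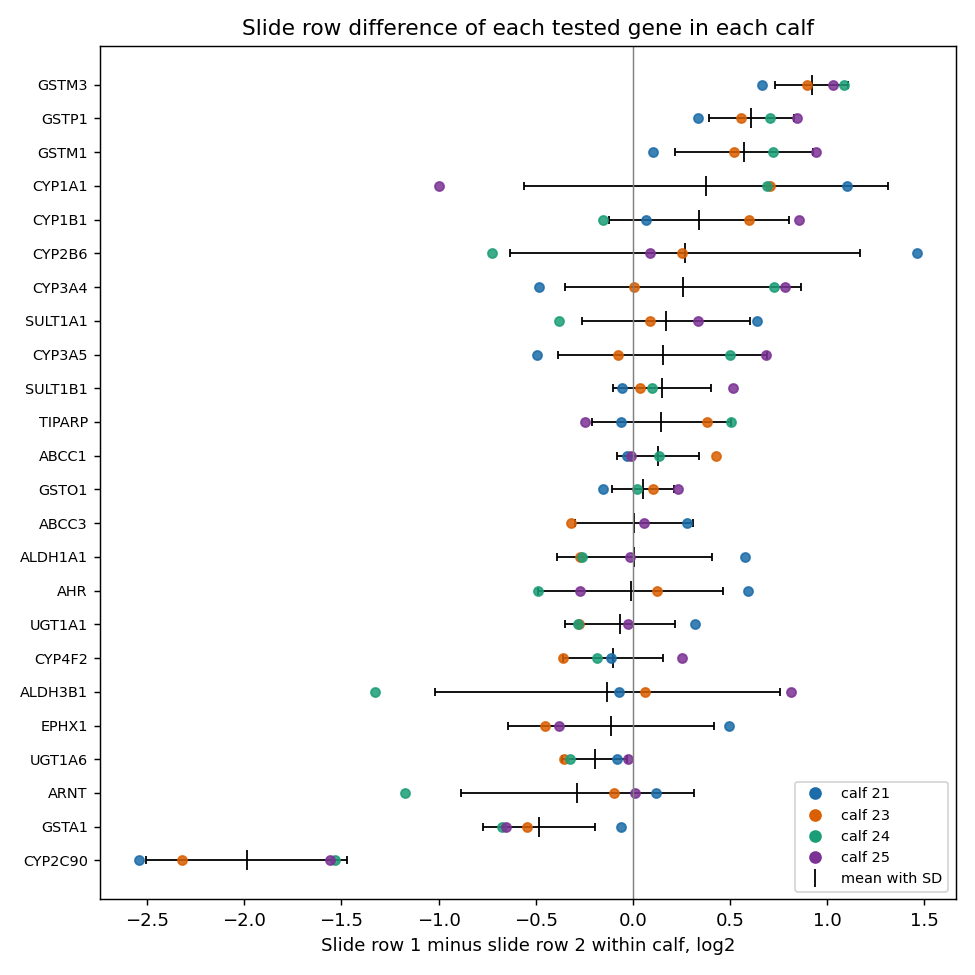
Slide row 1 minus slide row 2 within each calf (x axis, log2; coloured points) for the 24 tested genes, with the mean as a vertical tick and the SD over calves as a bar. CYP2C90 lies left of all other genes, at -1.99 on average, and GSTM3, at 0.92, is the gene farthest right.

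GSTO1, an omega-class glutathione transferase that reduces dehydroascorbate and arsenic compounds, set 1 calf apart on both diets. It too was chosen after its values were seen. Its levels were 5.31, 4.66, 5.21 and -0.47 on WP, against 5.46, 4.56, 5.24 and -0.24 on control. Both arrays of calf 25 lay at least 4.80 below the other 6, a gap of 27.9-fold, and all 8 spots were above background. The diet difference was -0.076 ± 0.15 (limma adjusted p = 0.840).

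Of the 10236 tested probes, 4 had both arrays of 1 calf more than 4 log2 from the other 6, a limit set after the values were seen. Besides GSTO1 these were GSTA2, an alpha-class glutathione transferase, ADH6, an alcohol dehydrogenase, and IFI47, an interferon-induced GTPase. GSTA2 was low in calf 21, at -5.40 on WP and -7.90 on control, both below background, against -0.43 to 2.03 on the other arrays. ADH6 was low in calf 23, at -2.89 on WP and -0.86 on control, against 4.06 to 5.53 on the other arrays. IFI47 was also low in calf 23, at -6.74 on WP and -7.58 on control, below background on both. Over all tested probes the median range across the 8 arrays was 0.84, and over the 24 genes it was 1.15. Only 29 probes (0.283%) had a range over 5, among them GSTO1 (5.94) and CYP2C90 (5.98).

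**Figure D4:**
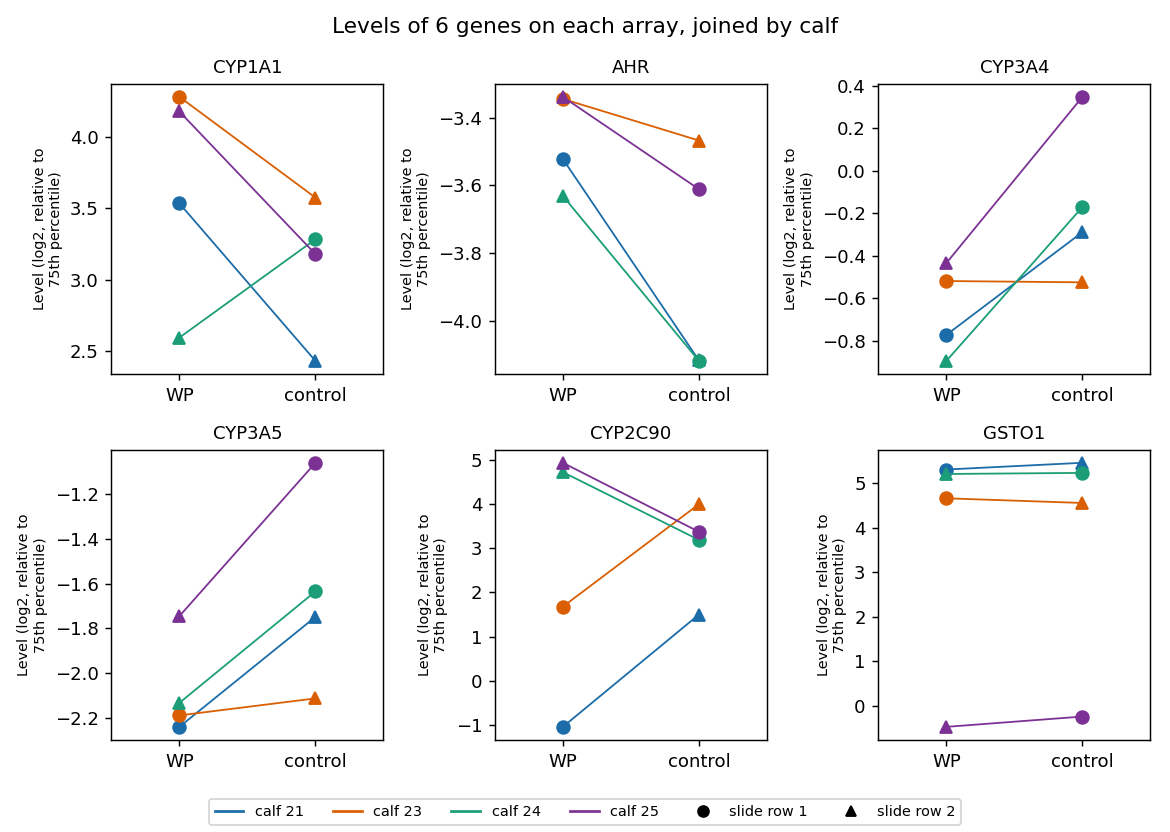
Levels of 6 genes on each array (y axis, log2 relative to the array's 75th percentile; each panel has its own scale), WP left and control right, joined by calf, with circles for slide row 1 and triangles for slide row 2. Lines of CYP3A5 all run upward to control, those of CYP2C90 cross by row, and calf 25 lies alone at the bottom of the GSTO1 panel.

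Other genes of the same processes were read from 11 lists of 182 genes, of which 150 had a probe of their own and 110 were tested; GSTT2 and GSTT3 share 1 probe and were counted once. After adjustment 0 passed limma's test, and at an unadjusted p under 0.05 there were 3 higher and 1 lower (3.64%, against 6.99% of all probes). Differences were positive for 67 and negative for 43, with a median of 0.060. Among 11 other cytochromes P450 (6 positive), CYP27A1, the sterol 27-hydroxylase, differed by 0.53 ± 0.14, positive in 4 of 4 calves, with an unadjusted limma p of 0.0060 and an adjusted p of 0.658. CYP4V2, a fatty acid hydroxylase of the same list, differed by 0.62 ± 0.72. Among 10 other phase II transferases (7 positive), HNMT, which methylates histamine, differed by 0.79 ± 0.53, and TST, the cyanide-detoxifying rhodanese, by 0.21 ± 0.15. Of 7 electron donors (4 positive), CYB5R1, a cytochrome b5 reductase, differed by -0.70 ± 0.49 and was lower in 4 of 4 calves, and FDXR, the mitochondrial donor, by -0.25 ± 0.23.

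Of 10 other carriers, 9 were positive, with a median of 0.34. SLC22A5, which imports carnitine, differed by 0.37 ± 0.24 and SLC47A2, a cation exporter, by 0.34 ± 0.25, both positive in 4 of 4 calves. Among 9 AHR partners and regulators (7 positive), NCOA2, a coactivator, differed by 0.39 ± 0.53 and PTGES3, the chaperone p23 of the AHR complex, by 0.27 ± 0.34. The NCOA2 difference was 1.18 in calf 24, whose WP array had raised control spots, and 0.060 to 0.20 in the other calves. Of 7 other AHR target genes 6 were negative, where 64.4% of all probes were positive. TGM1, a transglutaminase of the cornified envelope, was at -1.03 ± 1.40 and CDKN1A, a cell cycle inhibitor, at -0.20 ± 0.21. NQO1, counted as negative, was at -0.0060. The medians of this list by calf were 0.049, -0.34, -0.23 and -0.11, and 0 of its genes had an unadjusted limma p under 0.05. Of 8 other glucuronidation and sulfation genes (5 positive), UGT2A3 differed by -0.50 ± 0.47 and SULT2B1, which sulfates cholesterol, by -0.84 ± 0.98. Of 10 other glutathione transferases (5 positive), GSTT4 differed by 0.67 ± 0.97 and GSTA2 by 1.22 ± 2.08. The GSTT4 difference was 2.01 in calf 24, against 0.64, 0.32 and -0.28 in calves 21, 23 and 25. GSTA2 differed by 2.50 in calf 21, where both spots were below background, and by -1.87, 1.78 and 2.46 in calves 23, 24 and 25.

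Of 18 genes of aldehyde, alcohol and carbonyl metabolism (13 positive), DHRS9, a retinol dehydrogenase, differed by -0.93 ± 1.18 and AKR1A1, an aldehyde reductase, by -0.33 ± 0.33. Of 14 other phase I oxidases and hydrolases (6 positive), EPHX2, the soluble epoxide hydrolase, differed by 0.36 ± 0.64 and CDA, cytidine deaminase, by -0.25 ± 0.25. Among nuclear receptors and partners of drug metabolism, 6 of 10 genes with a probe were tested, and NR1I2 (PXR) and NR1I3 (CAR), the receptors that control CYP3A and CYP2B genes in liver, were not. CEBPB differed by 0.73 ± 1.53 and PPARA by 0.52 ± 1.18. In calf 24, whose WP array had raised control spots, they differed by 2.94 and 2.17. In calves 21, 23 and 25 CEBPB differed by 0.57, -0.36 and -0.25, and PPARA by 0.18, -0.62 and 0.36. Limma adjusted p of every gene named from these lists was at least 0.658.

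The labelled tissue was checked against marker genes. Of 15 stratified epithelium markers 14 were tested, all but KRT4; their summed level (linear, in units of each array's 75th percentile) was 499 to 712 on WP and 631 to 724 on control. Fibroblast markers, 10 of 10 tested, summed to 18.1 to 43.0 on WP and 10.04 to 39.4 on control, with a median difference of 0.64 and 9 of 10 positive. Of all probes 64.4% were positive. By calf the fibroblast medians were -0.69, 0.48, 0.82 and 1.24 for calves 21, 23, 24 and 25, so calf 21 went the other way. Endothelium markers (7 of 8 tested, CDH5 not) summed to 4.99 to 9.35 on WP and 3.86 to 6.89 on control, with 7 of 7 positive and a median of 0.42. Their medians by calf were -0.38, 1.66, 0.063 and 0.51, in the same order. Smooth muscle markers (6 of 8) summed to 15.7 to 21.2 on WP and 11.6 to 18.5 on control, with 6 of 6 positive and a median of 0.42. By calf these medians were 0.17, 0.42, 0.51 and 0.044. Macrophage and dendritic cell markers (6 of 8) summed to 3.27 to 6.41 on WP and 3.38 to 9.35 on control, T and NK cell markers (5 of 8) to 0.499 to 1.40 on WP and 0.405 to 1.60 on control, and B and plasma cell markers (5 of 7) to 2.72 to 2.76 on WP and 2.69 to 5.0 on control. Hepatocyte markers, 3 of 6 tested, summed to 0.107 to 0.879 on WP and 0.308 to 0.666 on control, and ALB, the defining one, was not tested for lack of signal. The part of the fibroblast, endothelium and smooth muscle markers in the differences above was not tested, and in bulk tissue a smaller share of cells of a type and less RNA per cell cannot be told apart.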

How the data were processed

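Rumen epithelium RNA, 500 ng labelled with Cy3 per the labels, was read on 8 one-colour arrays of the bovine design 072598. The deposited scanner files hold spot intensity, a background-corrected processed signal and flags; the file headers name Agilent Feature Extraction 11.0.1.1, while its version is 9.5 per the submitters' processing notes. A value table on the log2 scale was also deposited by the authors. Compared with the scanner data, each column was log2 of the processed signal less 1 constant (slopes 0.99998 to 1.00, medians -3.07 to -2.26), not centred by gene, and served as an alternative.

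Control spots (536) and outlier spots (97) were left out, spots of a probe averaged, log2 of the processed signal taken and each array's 75th percentile over probes subtracted. Of 15008 probes, 10236 (68.2%) flagged well above background on 4 or more of the 8 arrays were tested; a gene is its brightest tested probe. Names come from the RefSeq table of ARS-UCD2.0: 11683 probes by accession, 2675 by symbol, 36 by an older symbol and 614 by the array design. Positions are on UMD 3.1, per the file headers. The number of arrays limits the precision.

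The diet fit used limma 3.58.1 with R 4.3.3 (two-sided, Benjamini-Hochberg over all probes, threshold 0.05) with calf as a block. The pairing comes from the labels: deviations of a calf's 2 arrays correlated weakly (r of 0.0090, 0.20, 0.060 and 0.048 for calves 21, 23, 24 and 25). An exact sign-flip test over 4 calves cannot go below p = 0.125. An error is the SD of within-calf differences. The pipeline was tested on simulated data. The genes and lists were chosen with earlier results of these data known. Values on all arrays are given for tested AHR pathway and CYP1 genes and the 8 other genes of smallest p, and 2 genes are named per list. Alternatives were normexp (offset 50), quantile scaling, the value table, filters, blocks, slide row, prior, probe choice and leaving out each calf; the row contrast was chosen after seeing the data.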

Additional observations from a re-analysis of the deposited data

Results flagged for a closer look

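In 46 groups of 4 arrays (each tested gene on each diet with 4 values), a Dixon test found 4 arrays far from the other 3 of their group; chance flags about 1 in 20 groups. The ARNT level of calf 24 on WP, -2.65, lay far above the other WP arrays; that array also had raised control spots. GSTO1 of calf 25 lay far below the other calves on WP, at -0.47, and on control, at -0.24. ABCC1 of calf 23 on control lay low, at -1.51, and the calf's WP array was at -1.08.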

How the results depend on the processing

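Under all 15 alternatives 0 of the genes and 0 of the probes passed limma's adjusted threshold. The counts at an unadjusted p under 0.05 moved, from 715 probes (3 genes of the group) to 1427 (2 genes) under normexp and to 429 (1 gene) without calf 24 and 480 (0 genes) without calf 21. Without the replicate block (calf) 0 passed, with 785 probes and 1 gene at the unadjusted level. Quantile scaling moved the share of lower differences among them to 63.6%, against 25.0%, and the median of all probes to -0.015, against 0.087. With no filter on dim probes the median of the group was 0.14, over 33 genes and not 24, and that of all probes 0.23.

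Among the 15 genes with values on all arrays in the text, several differences changed sign; the cause was not tested. Under normexp these were CYP1B1 (0.077) and CYP4F2 (0.063), and under quantile scaling AHR (-0.31), ARNT (-0.067) and SULT1A1 (-0.48). Within slide row 1, where diets come from different calves, they were ARNT (-0.0051), TIPARP (-0.20), SULT1B1 (0.019), CYP4F2 (0.13), GSTM1 (0.15), ALDH1A1 (-0.0097) and GSTO1 (2.49), and within row 2 CYP1B1 (0.0063) and CYP2C90 (2.08). Leaving out each calf in turn, CYP2C90 ran from -1.11 to 0.26, TIPARP from -0.11 to 0.19 and CYP1B1 from -0.21 to 0.27. Each of the other 9 tested genes, whose differences were small, had the opposite sign under at least 1 alternative: 2 under quantile scaling, 3 within row 1, 4 within row 2, 1 in the value table and 1 to 3 on leaving out a calf. CYP1A1 and CYP2B6 were positive, and CYP3A4 and CYP3A5 negative, under the 9 alternatives that can move their value. CYP2B6 was 0.0057 within slide row 1, and CYP3A5 was -0.0084 within row 2. For these genes the signs on leaving out a calf follow from the 4 within-calf differences, and the value table moves them little. The other 6 alternatives leave the value as it is by construction.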
